A study of Mus musculus with 12 samples.

Results

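The expression of 8 genes that carry out or restrain programmed cell death was examined in the brains of mice 14 d post-stroke. The genes were *Casp8*, *Ripk1*, *Ripk3*, *Mlkl*, *Bax*, *Bcl2*, *Bcl2l1* and *Bcl2l11*, taken by symbol from the 49315 genes of the count table. Young adult male CD45.1 Pep Boy mice, a C57Bl6 congenic strain, received irradiation with the head shielded and were then transplanted with bone marrow (BM). In WT mice (n = 6), 10% of the transplanted cells were CD45.2 *Tet2*+/+ and 90% were CD45.1 *Tet2*+/+. In *Tet2*-KO mice (n = 6), 10% were CD45.2 *Tet2*-/- and 90% were CD45.1 *Tet2*+/+, a mixture that models clonal hematopoiesis, in which a mutant blood stem cell clone supplies part of the blood. Both groups then underwent transient occlusion of the middle cerebral artery, so the comparison is between strokes and holds no brain without stroke. The brain cells of the recipients were *Tet2*+/+ in both groups, and 1 library of total RNA per mouse was sequenced after removal of ribosomal RNA. The labels give the tissue as brain, and whether whole brains or hemispheres were used is not certain from the sources, so the share of uninjured tissue in each library is not known.

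Cells die in a regulated way along connected routes. When a death receptor such as the TNF receptor is engaged, RIPK1 and the adaptor FADD recruit caspase-8, which starts apoptosis by cleaving the executioner caspases. If caspase-8 is not active, RIPK1 and RIPK3 assemble a necrosome in which RIPK3 phosphorylates MLKL, and MLKL then ruptures the plasma membrane, a lytic death called necroptosis. The mitochondrial route is set by the BCL-2 family, in which BAX opens the outer mitochondrial membrane, BCL-2 and BCL-xL (encoded by *Bcl2l1*) hold it back, and BH3-only proteins such as BIM (encoded by *Bcl2l11*) neutralize those guardians. In the ischemic brain these routes are studied in neurons, while in leukocytes BIM and BCL-2 proteins also set how long a cell lives.

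Promoter sequences are shown for the pro-death *Bcl2l11*, the member with the smallest p, and for the necroptosis genes *Ripk3* and *Mlkl*, the members with the largest log2 fold changes in size. All 8 genes were found in the RefSeq promoter table (build GRCm38.p6), and each window below is the 250 bases before the start of transcription, read 5′ to 3′ on the strand of the gene, with matches to the searched motifs in capitals. The *Bcl2l11* window lies on the plus strand at chr2:128125788-128126037, the *Ripk3* window on the minus strand at chr14:55788858-55789107 and the *Mlkl* window on the minus strand at chr8:111338206-111338455.
*Bcl2l11*: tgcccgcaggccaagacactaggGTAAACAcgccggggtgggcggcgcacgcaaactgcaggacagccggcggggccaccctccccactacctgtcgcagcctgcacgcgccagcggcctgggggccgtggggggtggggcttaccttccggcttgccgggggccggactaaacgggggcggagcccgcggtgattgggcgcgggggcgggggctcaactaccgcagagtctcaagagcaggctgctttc
*Ripk3*: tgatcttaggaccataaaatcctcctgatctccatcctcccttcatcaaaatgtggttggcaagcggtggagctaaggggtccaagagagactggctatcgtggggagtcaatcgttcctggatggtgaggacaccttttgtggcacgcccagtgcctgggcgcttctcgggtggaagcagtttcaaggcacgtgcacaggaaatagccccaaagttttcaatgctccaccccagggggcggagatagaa
*Mlkl*: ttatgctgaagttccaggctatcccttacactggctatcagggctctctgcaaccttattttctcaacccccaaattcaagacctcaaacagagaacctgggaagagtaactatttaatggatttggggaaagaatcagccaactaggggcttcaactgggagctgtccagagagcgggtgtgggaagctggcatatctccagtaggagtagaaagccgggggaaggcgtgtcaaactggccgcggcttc
The capitals in *Bcl2l11* mark the letters GTAAACA, the core bound by FOXO factors, 227 to 221 bases before the start. These letters were found on either strand in 3.17% of all 32851 promoter windows of that length. No match was found in the *Ripk3* or *Mlkl* windows to GTAAACA, to GAGGAAGT (the PU.1 core, in 2.44% of windows), to GAAANNGAA (an interferon response core, in 7.13%), to TGANTCA (AP-1, in 6.75%) or to the NF-kB motif (in 3.90%). The table holds a second *Bcl2l11* start, with its window at chr2:128127325-128127574 on the same strand, and no match was found in that window. In the windows of the other members, the only match was to the NF-kB motif in a *Bcl2l1* window, 242 to 233 bases before that start. A match describes the letters only and does not show that a factor binds there.

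The libraries held between 12000261 and 21049763 counts per mouse, with medians of 13490631.5 counts in WT and 15894080.5 counts in *Tet2*-KO mice. Levels are given as CPM, counts of a gene relative to the size of its library after scaling by the trimmed mean of M values (TMM), and differences as log2 fold changes of *Tet2*-KO over WT from edgeR's quasi-likelihood test, adjusted over all 20290 genes tested. *Tet2* itself was at 132 ± 7.60 CPM in WT and 131 ± 7.79 CPM in *Tet2*-KO mice (mean ± SD, n = 6 each), which does not check the labels because only transplanted cells carried the deletion. The WT mouse 2 and the *Tet2*-KO mouse 5 stood apart from their groups in several of the genes below, so calls that change without them are given beside the results.

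Of the 8 genes, 5 had lower group means in *Tet2*-KO mice at an unadjusted p below 0.05 and none was higher, whereas 12.2% of all tested genes were lower and 23.1% differed in either direction at the same level. The 8 genes and the pathway lists below were chosen with earlier results of these data known. Their shares are therefore descriptions and do not measure an unbiased excess. None of the 8 passed an adjusted p of 0.05 in edgeR, where only 5 genes, or 0.0246% of those tested, did. The 5 genes were *Casp8*, *Ripk1*, *Ripk3*, *Mlkl* and *Bcl2l11*, with adjusted p values between 0.148 and 0.178. *Bax*, *Bcl2* and *Bcl2l1* had log2 fold changes between -0.16 and 0.00042. The median over the 8 genes was -0.60, against 0.010 over all tested genes. In bulk brain RNA, fewer cells of a type and less RNA per cell cannot be told apart.

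*Casp8*, the initiator protease of receptor-driven apoptosis, is on chromosome 1 (GRCm38, 58795374 to 58847503, plus strand). It was at 9.40, 13.3, 8.40, 6.81, 9.73 and 9.20 CPM in WT mice 1 to 6 and at 2.48, 4.37, 5.85, 7.87, 9.65 and 3.46 CPM in *Tet2*-KO mice 1 to 6. In 4 of the 6 *Tet2*-KO mice the level lay under the WT range, while *Tet2*-KO mice 4 and 5 lay inside the WT range, so the groups overlapped. The group means were 9.47 ± 2.14 and 5.61 ± 2.74 CPM, a log2 fold change of -0.76 (SE 0.29, unadjusted p = 0.0211, adjusted p = 0.159, edgeR).

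*Ripk1*, the kinase and scaffold that directs the receptor complex towards survival or death, is on chromosome 13 (34002363 to 34037147, plus strand). Its level was 13.7, 21.3, 14.5, 15.3, 13.5 and 11.8 CPM in WT mice 1 to 6 and 6.44, 9.53, 9.41, 11.9, 17.1 and 8.69 CPM in *Tet2*-KO mice 1 to 6. The WT mouse 2 was highest of all and the *Tet2*-KO mouse 5 was above 5 of the 6 WT mice, and 4 *Tet2*-KO mice lay under the WT range. The log2 fold change was -0.52 (SE 0.21, unadjusted p = 0.0258, adjusted p = 0.168). *Ripk1* shares 241 exon bases, 2.89% of its exon length, with *Serpinb6a* on the opposite strand and 511 bases with the pseudogene *Gm17084*. How reads from those stretches were assigned, or whether they were counted, is not known.

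*Ripk3* and *Mlkl*, the kinase and the membrane-rupturing effector of necroptosis, were the least abundant of the 8 genes. *Ripk3*, on chromosome 14 (55784995 to 55788865, minus strand), was at 2.33, 2.65, 1.80, 1.94, 1.48 and 0.873 CPM in WT mice 1 to 6 and at 0.620, 0.292, 0.538, 0.874, 2.75 and 0.615 CPM in *Tet2*-KO mice 1 to 6. These levels rest on 11 to 37 counts per WT library and 6 to 35 counts per *Tet2*-KO library. The *Tet2*-KO mouse 5 was above every WT mouse and 4 others of its group lay under the WT range. The log2 fold change was -1.05 (SE 0.44, unadjusted p = 0.0311, adjusted p = 0.178).

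*Mlkl*, on chromosome 8 (111311797 to 111338177, minus strand), was at 1.73, 3.30, 1.15, 2.14, 1.98 and 1.67 CPM in WT mice 1 to 6 and at 0.310, 0.583, 0.471, 1.59, 2.20 and 0.923 CPM in *Tet2*-KO mice 1 to 6. The 4 lowest values were all from *Tet2*-KO mice, and *Tet2*-KO mice 4 and 5 lay inside the WT range. The log2 fold change was -1.01 (SE 0.39, unadjusted p = 0.0227, adjusted p = 0.161), from 16 to 46 counts per WT library and 5 to 31 counts per *Tet2*-KO library.

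Among the mitochondrial genes, *Bcl2l11* had the widest difference. This gene for the BH3-only protein BIM, on chromosome 2 (128126038 to 128162547, plus strand), was at 26.3, 44.3, 20.8, 26.0, 23.1 and 24.9 CPM in WT mice 1 to 6 and at 10.7, 14.6, 14.3, 20.8, 27.5 and 15.3 CPM in *Tet2*-KO mice 1 to 6. All 6 *Tet2*-KO mice were below the WT mean of 27.6 CPM, but *Tet2*-KO mice 4 and 5 lay inside the WT range. The log2 fold change was -0.68 (SE 0.24, unadjusted p = 0.0159, adjusted p = 0.148), which is 0.622 times the WT level with a 95% interval of 0.431 to 0.899.

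*Bax*, the membrane pore former, is on chromosome 7 (45461697 to 45466898, minus strand) and spanned 15.3 to 18.9 CPM in WT (median 16.3) and 12.002 to 17.4 CPM in *Tet2*-KO mice (median 14.9). The *Tet2*-KO values reached below and into the WT range, and the log2 fold change was -0.16 (95% interval -0.35 to 0.026, adjusted p = 0.283). *Bcl2*, the prototype survival gene, is on chromosome 1 (106538178 to 106714274, minus strand) and spanned 27.2 to 35.9 CPM in WT (median 30.2) and 24.3 to 31.5 CPM in *Tet2*-KO mice (median 29.2). Its log2 fold change was -0.11 (95% interval -0.28 to 0.058, adjusted p = 0.425). *Bax* shares 192 exon bases (12.2%) with *Gm45808* on the same strand. *Bcl2* shares 558 exon bases (6.09%) with *D630008O14Rik* on the opposite strand.

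*Bcl2l1*, the gene for BCL-xL, on chromosome 2 (152780668 to 152831728, minus strand), spanned 73.3 to 82.1 CPM in WT (median 76.7) and 63.0 to 84.2 CPM in *Tet2*-KO mice (median 80.6). The *Tet2*-KO mice lay on both sides of the WT range, with 2 below and 2 above it. The log2 fold change had a 95% interval of -0.14 to 0.14 (adjusted p = 0.998), which bounds the difference for this gene more tightly than for any other of the 8.

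**Figure D1:**
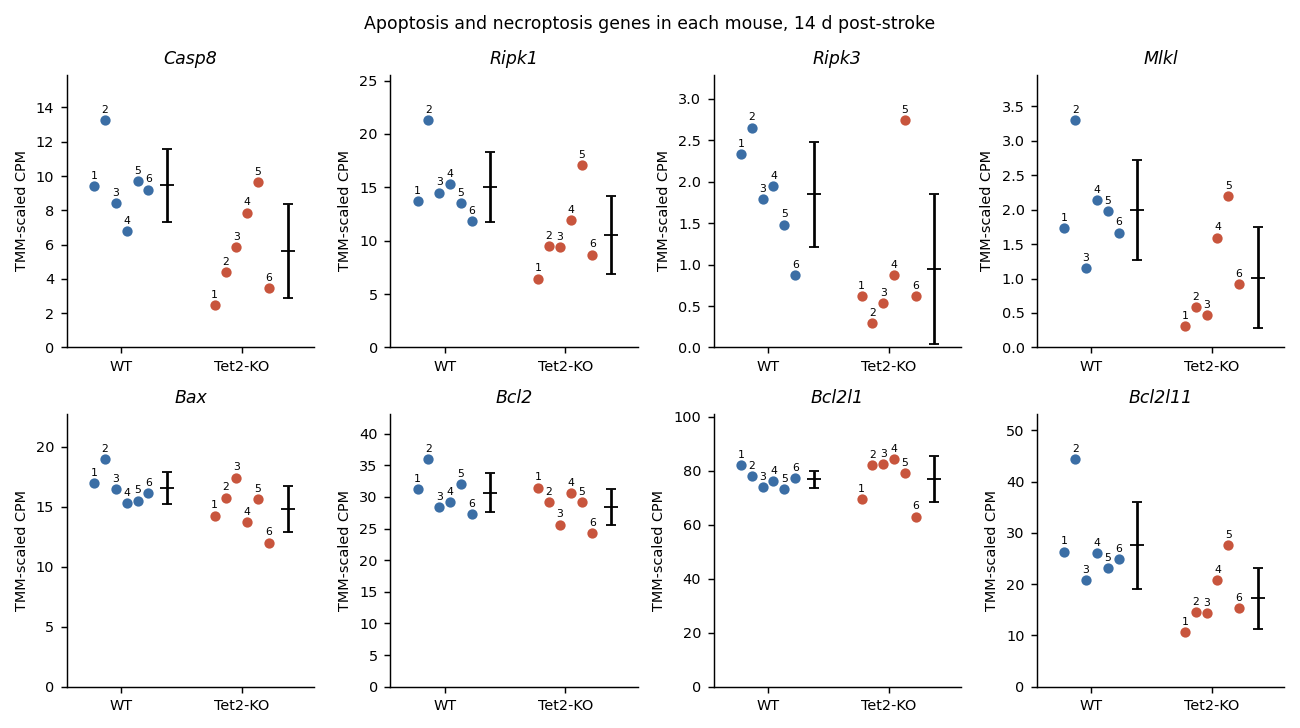
Level of each of the 8 genes in each mouse (vertical axes, TMM-scaled CPM from 0; points numbered by replicate; black bars, mean ± SD, n = 6 per group). In *Casp8*, *Ripk1*, *Ripk3*, *Mlkl* and *Bcl2l11* 4 of 6 *Tet2*-KO mice sit under the WT range and *Tet2*-KO mouse 5 is the highest of its group, whereas *Bcl2l1* lies between 63.0 and 84.2 CPM in all mice.

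The calls depended on 1 mouse and on the test. Without *Tet2*-KO mouse 5, all 5 genes passed the adjusted threshold in edgeR, *Ripk3* at a log2 fold change of -1.66 (adjusted p = 0.0090), *Mlkl* at -1.33 (0.033), *Casp8* at -0.96 (0.035), *Bcl2l11* at -0.86 (0.030) and *Ripk1* at -0.70 (0.020). In that fit 11.0% of all tested genes passed, so the gain was not particular to these genes. Without WT mouse 2, by contrast, *Bcl2l11* alone was at an unadjusted p below 0.05 (log2 fold change -0.50, adjusted p = 0.302). In that fit 1622 of 20475 tested genes were lower and 1508 higher at the same level. Without both mice, a choice made after the data were seen, *Bcl2l11*, *Ripk1* and *Ripk3* passed (adjusted p = 0.018, 0.019 and 0.011), with *Mlkl* at 0.055 and *Casp8* at 0.068. In that fit 1554 of 20464 tested genes passed. With all 12 mice, the DESeq2 Wald test called *Bcl2l11* alone (adjusted p = 0.044, where 4.32% of genes passed), and limma-voom with sample quality weights called all 5 (adjusted p from 0.017 to 0.030, where 9.92% of genes passed). Sample quality weights can count a deviant library for less, so the limma-voom fit need not treat the 12 mice alike. *Bax*, *Bcl2* and *Bcl2l1* passed in none of these fits.

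**Figure D2:**
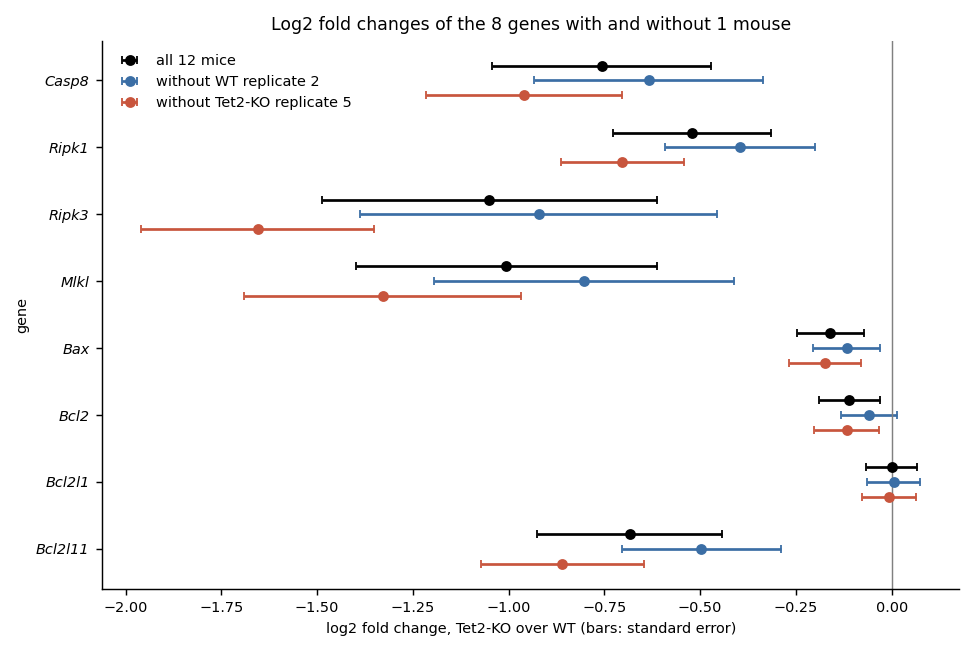
Log2 fold change of *Tet2*-KO over WT (horizontal axis; points, edgeR estimate; bars, standard error) for each gene with all 12 mice, without WT mouse 2 and without *Tet2*-KO mouse 5. *Ripk3* moved from -1.05 to -1.66 without *Tet2*-KO mouse 5, and *Bax*, *Bcl2* and *Bcl2l1* stayed near 0 in all 3 fits.

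Per kilobase of exon, the order of the levels over all 12 mice was *Bcl2l1*, *Bax*, *Bcl2*, *Bcl2l11*, *Casp8*, *Ripk1*, *Mlkl* and *Ripk3*. In WT mice the means on that scale ran from 16.7 ± 0.69 CPM per kb for *Bcl2l1* and 10.5 ± 0.84 for *Bax* to 0.866 ± 0.31 for *Mlkl* and 0.806 ± 0.27 for *Ripk3*. *Bcl2l1* exceeded *Bax*, *Bax* exceeded *Bcl2*, *Casp8* exceeded *Ripk1* and *Ripk1* exceeded *Mlkl* in 12 of 12 mice. *Bcl2* exceeded *Bcl2l11* in 8 mice, and this pair differed between the groups. In WT mice the means were 3.35 ± 0.34 for *Bcl2* and 3.43 ± 1.05 for *Bcl2l11* (medians 3.30 and 3.17). In *Tet2*-KO mice they were 3.10 ± 0.31 and 2.14 ± 0.75 CPM per kb. *Bcl2l11* exceeded *Casp8* and *Mlkl* exceeded *Ripk3* in 7 mice each, so the neighbours in these last pairs were not separated by their spread.

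The balance between members was described by ratios of CPM within each mouse, with no test. *Bcl2l11* over *Bcl2*, the BIM trigger relative to a guardian it binds, ran from 0.722 to 1.23 in WT (median 0.866) and from 0.341 to 0.943 in *Tet2*-KO mice (median 0.594), and 5 of 6 *Tet2*-KO mice lay under the WT range. *Bax* over *Bcl2l1* ran from 0.201 to 0.243 in WT and from 0.163 to 0.211 in *Tet2*-KO mice, and 4 of 6 lay under the WT range. *Bax* over *Bcl2* ran from 0.485 to 0.592 in WT and from 0.449 to 0.680 in *Tet2*-KO mice, and the *Tet2*-KO mice extended past both ends of the WT range. *Ripk3* over *Casp8* ran from 0.0948 to 0.286 in WT (median 0.207) and from 0.0667 to 0.285 in *Tet2*-KO mice (median 0.144). Of the 6 *Tet2*-KO mice 2 lay under the WT range, and this ratio rests on the low counts of *Ripk3*.

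Variation from mouse to mouse was compared between members within the groups. With each group centred on its own mean of log2 CPM over the 12 mice, Pearson's r was 0.93 between *Mlkl* and *Bcl2l11* (Spearman's rho 0.85), 0.92 between *Ripk1* and *Bcl2l11* (rho 0.66), 0.85 between *Casp8* and *Ripk1* (rho 0.64) and 0.57 between *Casp8* and *Ripk3* (rho 0.55). It was 0.68 between *Bax* and *Bcl2l1* (rho 0.55), 0.63 between *Casp8* and *Bcl2l1* (rho 0.64) and -0.03 between *Mlkl* and *Bax* (rho -0.24). These values describe libraries that share depth and tissue makeup. Among 19101 genes searched, those with the pattern most like each member were *Pdcd1* and *Ifnar2* for *Bcl2l11* (r = 0.99 for both), *Fn1* and *Elf1* for *Ripk1* (both 0.98), *Fgd2* and *Lrmda* for *Casp8* (both 0.97), *Trim25* and *Tbx18* for *Mlkl* (both 0.97) and *Tmem140* for *Ripk3* (0.92). For the other members they were *Tatdn2* and *Rab11fip5* for *Bax* (0.95 and 0.93), *Taf13* and *Kif22* for *Bcl2* (both 0.91) and *Ercc3* and *Map3k11* for *Bcl2l1* (both 0.96).

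The 8 genes were set beside 51 other genes of the same pathways, grouped by role. Of these, 48 were tested, 19 were lower and 2 higher in *Tet2*-KO mice at an unadjusted p below 0.05, and none passed the adjusted threshold in edgeR with all 12 mice. Over all 20290 tested genes, 2477 (12.2%) were lower and 2201 higher at that level, which is the background for the role counts below. Without *Tet2*-KO mouse 5, 14 passed, 13 of them lower, against 11.0% of all tested genes. Without both WT mouse 2 and *Tet2*-KO mouse 5, 9 passed, where 1554 of 20464 tested genes did, and without WT mouse 2 alone 0 did. With all 12 mice, 4 passed by DESeq2, where 4.32% of all genes passed, and 11 by limma-voom, where 9.92% did. *Fasl*, *Bcl2a1a* and *Bik* had too few counts to be tested, with at most 10 counts in a library for the first 2 and 6 for *Bik*. The median log2 fold change was -0.16.

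Upstream of *Casp8* and *Ripk1*, 4 of 5 tested death ligands and receptors were lower at an unadjusted p below 0.05, and their median log2 fold change was -0.65. *Tnf*, the ligand of the TNF receptor, had means of 2.39 ± 0.83 CPM in WT and 1.11 ± 0.64 CPM in *Tet2*-KO mice (log2 fold change -1.12, SE 0.35, adjusted p = 0.124). *Tnfrsf10b*, the mouse TRAIL receptor, had a log2 fold change of -0.65 (SE 0.21, adjusted p = 0.124). Of 12 adaptors and ubiquitin enzymes of the receptor complexes, 6 were lower and none higher at that level. They included *Birc3*, the ubiquitin ligase cIAP2 (log2 fold change -1.13, SE 0.35, adjusted p = 0.128), and *Tnfaip3*, the ubiquitin-editing enzyme A20 that restrains NF-kB (-0.58, SE 0.18, adjusted p = 0.126).

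Of 5 necroptosis partners, *Zbp1*, a nucleic acid sensor that can engage RIPK3, had means of 21.3 ± 4.61 CPM in WT and 8.997 ± 9.16 CPM in *Tet2*-KO mice (log2 fold change -1.27, SE 0.55, adjusted p = 0.199). Its *Tet2*-KO mouse 5 was at 26.4 CPM and the other 5 *Tet2*-KO mice were between 1.05 and 11.3 CPM. Without that mouse the log2 fold change of *Zbp1* was -1.93 (adjusted p = 0.020, edgeR). By limma-voom with all mice and sample quality weights it was -1.88 (adjusted p = 0.0068). *Camk2d*, a calcium-dependent kinase, was at a log2 fold change of 0.14 (SE 0.052, adjusted p = 0.151).

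In the BCL-2 family, 3 of 4 tested pro-survival genes were lower at an unadjusted p below 0.05. *Bcl2a1d*, a leukocyte survival gene, was at 0.778 to 1.35 CPM in WT and 0.194 to 0.669 CPM in *Tet2*-KO mice, and *Bad*, a BH3-only gene, was at 10.4 to 11.98 CPM and 9.08 to 10.2 CPM. These were the only genes of the 48 tested in which the highest *Tet2*-KO value was under the lowest WT value. That pattern was found in 0.641% of all tested genes and in none of the 8 members. *Bcl2a1d* had only 3 to 18 counts per library and passed the expression filter through its WT libraries, so its separation is tied to that filter. The log2 fold changes were -1.44 for *Bcl2a1d* (SE 0.30, adjusted p = 0.110), -1.13 for its near-identical copy *Bcl2a1b* (SE 0.29, adjusted p = 0.112) and -0.22 for *Bad* (SE 0.070, adjusted p = 0.124). The study's methods counted only unique reads in exons, so reads that fit several *Bcl2a1* copies may be left out of all of them. *Bad* shares 524 exon bases (20.5%) with *Gpr137* on the opposite strand, and *Gpr137* had 12191 counts over all libraries. *Bcl2a1b* shares 401 exon bases (49.1%) with *Gm29094* on the same strand. *Bak1* shares 437 (18.2%) with an entry of *Ggnbp1* on the opposite strand. How reads from these stretches were assigned is not known. *Bak1*, the partner of BAX, was at -0.37 (SE 0.14, adjusted p = 0.153), and *Hrk*, a BH3-only gene expressed in neurons, was at 0.28 (SE 0.087, adjusted p = 0.124).

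Downstream, 3 of 14 genes (21.4%) of the apoptosome, the executioner caspases and their inhibitors were lower at an unadjusted p below 0.05, against 12.2% of all tested genes. The median log2 fold change over the 14 was -0.078. *Apaf1*, the scaffold of the apoptosome, was at -0.27 (SE 0.093, adjusted p = 0.135).

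**Figure D3:**
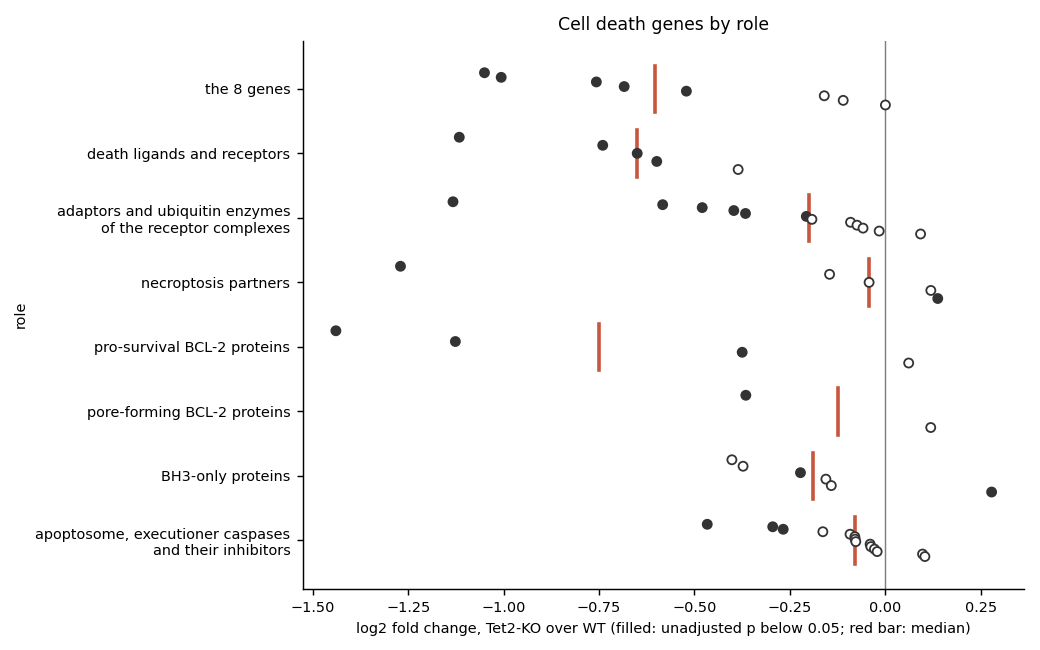
Log2 fold change of *Tet2*-KO over WT (horizontal axis) for the 8 genes and the 48 other tested death pathway genes by role (filled points, unadjusted p below 0.05; red bars, median of the role). The death ligands and receptors have a median of -0.65 and the apoptosome and executioner genes one of -0.078, and no point passed the adjusted threshold in this fit of all 12 mice.

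The summed markers of activated phagocytes, monocytes and fibroblasts were highest in WT mouse 2 within WT and in *Tet2*-KO mouse 5 within *Tet2*-KO. The same held for the sums of neutrophils, B cells and endothelial cells, so the trait was not particular to the first lists. WT mouse 2 was also the highest of WT for astrocytes, oligodendrocytes, homeostatic microglia and T cells, and the lowest for neurons and red blood cells. *Tet2*-KO mouse 5 held none of these places in its group. The summed level of 7 activated phagocyte markers ran from 1110 to 2858 CPM in WT and from 82.8 to 1616 CPM in *Tet2*-KO mice, and 5 of the 7 were lower at an unadjusted p below 0.05. WT mouse 2 and *Tet2*-KO mouse 5 were also the highest of their groups for *Casp8*, *Ripk1*, *Ripk3*, *Mlkl* and *Bcl2l11*. All 5 monocyte markers (sums of 33.6 to 65.3 CPM in WT and 3.90 to 43.0 CPM in *Tet2*-KO mice) and all 5 fibroblast markers (488 to 1178 CPM and 88.2 to 639 CPM) were also lower at that level.

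Markers of lymphocytes and neutrophils were low in both groups. The neutrophil sum was 5.87 to 18.0 CPM in WT and 1.62 to 4.08 CPM in *Tet2*-KO mice. *Tet2*-KO mouse 5, at 4.08 CPM the highest of its group, was under every WT value there. Of the 6 markers 3 were tested (*S100a8*, *S100a9* and *Cxcr2*), all 3 lower and 2 past the adjusted threshold. The list was not uniform, since the untested *Mpo* had means of 0.302 CPM in WT and 0.304 CPM in *Tet2*-KO mice. *Retnlg*, also untested, had means of 0.576 and 0.509 CPM. *Ly6g*, the defining neutrophil marker, had 2 counts over all libraries. T cell sums were 10.1 to 17.4 CPM and 5.88 to 10.6 CPM (4 of 6 tested, all 4 lower; the highest *Tet2*-KO mouse was mouse 4), and B cell sums 1.98 to 5.67 CPM and 0.462 to 2.04 CPM (1 of 4 tested, lower).

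Of the resident cells, all 6 neuron markers were higher in *Tet2*-KO mice at an unadjusted p below 0.05 (sums of 2605 to 3850 CPM in WT and 3427 to 4696 CPM in *Tet2*-KO mice). None of 5 astrocyte, 5 oligodendrocyte or 6 homeostatic microglia markers was at that level, with microglial sums of 562 to 1011 CPM and 283 to 737 CPM, while 2 of 5 endothelial markers were lower and 3 of 5 red blood cell markers higher. The abundant neuron, astrocyte and oligodendrocyte markers match the labelled tissue. The part of cell makeup in the differences of the 8 genes was not tested.

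**Figure D4:**
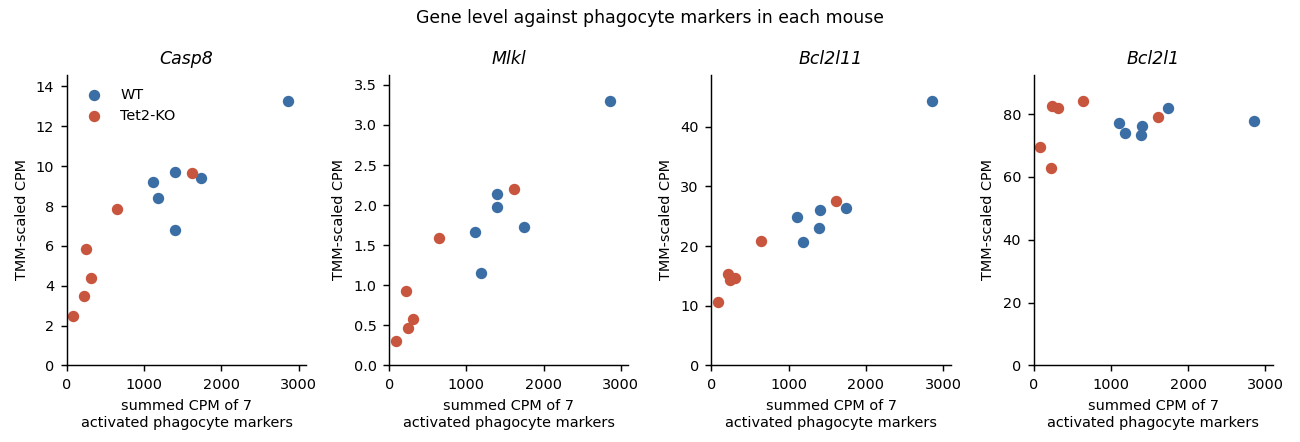
Level of *Casp8*, *Mlkl*, *Bcl2l11* and *Bcl2l1* (vertical axes, TMM-scaled CPM from 0) against the summed CPM of 7 activated phagocyte markers (horizontal axes) in each mouse, coloured by group. *Tet2*-KO mouse 5, at 1616 CPM of markers, sits among the WT mice in the first 3 panels, and *Bcl2l1* stays between 63.0 and 84.2 CPM over the whole range of markers.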

How the data were processed

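Total RNA from the brains of 6 WT and 6 *Tet2*-KO mice was sequenced after ribosomal RNA depletion. The authors deposited raw counts per Ensembl gene in 12 libraries. Per the labels, reads were trimmed with Trimmomatic 0.36, aligned to mm10 with STAR 2.5.2b and counted with featureCounts from Subread 1.5.2, and the strand setting is not given in the sources used here. Groups follow the labels. The treatment label reads alike in both groups, and titles and genotype separate them.

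The members and gene lists were chosen with earlier results of these data known. Symbols, positions and exon lengths came from GENCODE M21 (GRCm38). Counts were tested with edgeR 4.0.16 in R 4.3.3 (default expression filter, TMM scaling, robust quasi-likelihood F test, Benjamini-Hochberg adjustment over 20290 genes, threshold 0.05), after a check on simulated data. DESeq2 1.42.0, limma 3.58.1 (voom), other scalings and filters, a replicate block and leaving out each mouse were alternatives. The study's methods used DESeq2. Named besides the 8 genes were the 2 of smallest p below 0.05 in each role, the untested genes, and the 2 genes most like each member (prior count 2, mean of at least 1 CPM). Of the genes this rule names, 2 are not reported here.

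No pair of libraries within a group was alike enough to be 1 library deposited again (chi-square per degree of freedom 1.91 or more).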

Additional observations from a re-analysis of the deposited data

Results flagged for a closer look

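Among 50 sets of 6 values examined (the 8 genes, 13 other pathway genes and 4 ratios in each group), 7 held a mouse far from the others of its group, and chance gives about 1 in 20. WT mouse 2 accounted for 5 and *Tet2*-KO mouse 5 for 2 of them. The sets share the same mice, and the ratios reuse values of the 8 genes. They are therefore not independent, and the rate of 1 in 20 cannot measure how unusual 7 is.

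In WT mouse 2, *Bcl2l11* was at 44.3 CPM against 20.8 to 26.3 CPM in the other 5 WT mice, and *Ripk1* was at 21.3 CPM against 11.8 to 15.3 CPM. In the same mouse *Bcl2a1b* was at 8.97 CPM against 4.96 to 6.09 CPM, *Bak1* at 22.1 CPM against 14.3 to 16.8 CPM and *Hrk* at 20.7 CPM against 26.3 to 28.4 CPM. In *Tet2*-KO mouse 5, *Ripk3* was at 2.75 CPM against 0.292 to 0.874 CPM in the other 5 *Tet2*-KO mice, and *Hrk* was at 25.6 CPM against 31.7 to 35.4 CPM. Both mice also had the highest activated phagocyte marker sums of their groups, at 2858 and 1616 CPM. They were likewise highest for monocytes, fibroblasts, neutrophils, B cells and endothelial cells. WT mouse 2 was also highest in WT for astrocytes, oligodendrocytes, homeostatic microglia and T cells, and lowest for neurons and red blood cells. The part of any of these cells in these values was not tested.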

How the results depend on the processing

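The 5 genes past the adjusted threshold in edgeR became 902 by DESeq2, 2013 by limma-voom, 44 with no filter on low counts and 0 with at least 10 counts required in every library, and leaving out mice gave 0 to 2257, the highest without *Tet2*-KO mouse 5 and 1554 without both WT mouse 2 and *Tet2*-KO mouse 5. Of the 8 members, 0 passed in edgeR, 1 by DESeq2 and 5 by limma-voom, and leaving out mice gave 0 to 5. At an unadjusted p below 0.05, the 5 members became 3 with at least 10 counts in every library, where *Ripk3* and *Mlkl* could not be fitted. In that fit 2218 of 18181 tested genes were lower at that level. Leaving out mice gave 1 to 5 members, with 1 without WT mouse 2, 2 without *Tet2*-KO mouse 2 and 3 without *Tet2*-KO mouse 6. Of all tested genes, 1622 of 20475, 2039 of 20513 and 1984 of 20541 were lower in these fits, in that order. The members at that level were not always among the same 5, since *Bax* was included without *Tet2*-KO mouse 3 (unadjusted p = 0.026, edgeR). The 2 other pathway genes that were higher became 1 to 3 on leaving out mice, with 1 without *Tet2*-KO mouse 4. The cause of these shifts was not tested.

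By limma-voom the log2 fold changes of the genes that passed were -0.80 for *Casp8*, -0.53 for *Ripk1*, -1.54 for *Ripk3*, -1.27 for *Mlkl* and -0.66 for *Bcl2l11*, and by DESeq2 *Bcl2l11* was at -0.68. Leaving out mice gave -0.96 to -0.60 for *Casp8*, -0.70 to -0.40 for *Ripk1*, -1.66 to -0.83 for *Ripk3*, -1.33 to -0.80 for *Mlkl* and -0.86 to -0.50 for *Bcl2l11*. These 5 genes kept their direction in every fit run. *Bcl2l1*, with an estimate near 0, changed sign with DESeq2 size factors (-0.00051), with at least 10 counts in every library (-0.0047) and between mice left out (-0.031 to 0.051).

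Mice with the same replicate number did not deviate together (correlations from -0.17 to 0.23, and only 1 number correlated best with itself), so these values give no sign of pairing. Such correlations over all genes cannot exclude a shared cage or litter, and the paper states that cages usually mixed both kinds of recipient. With the replicate block 0 genes passed, against 5 without it, and *Bcl2l1* was at -0.0061. Depth limits *Ripk3* and *Mlkl*, which had as few as 6 and 5 counts in a library.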
